A study of Mus musculus with 32 samples.

Results

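The regions described here are chromatin stretches in mouse blood stem and progenitor cells, more open in marrow around birth than at adult age. They are called late-closed, which stands for a lower level and not for full closing. They are 1179 of the 96960 autosomal regions (1.22%) in the deposited count table of the developmental series, which holds 99037 regions in all. Levels are in CPM, the count of a region scaled to a common total for all libraries. A region was taken where its mean over the Perinatal BM and 1w BM libraries (the neonatal mean) was at least 5 CPM and at least 1.5 times its mean over the 6w BM and 8w BM libraries (the adult mean). The lowest of the 6 neonatal libraries also had to exceed the highest of the 6 adult libraries, and the neonatal mean had to exceed 0.5 times the mean over the E12.5 FL and E16.5 FL libraries. Among all autosomal regions, 1807 (1.86%) had every neonatal library above every adult library. The regions were thus chosen by their measured neonatal, adult and liver levels, so the neonatal, adult and liver levels below are a description and were not tested. The 3w BM, 4w BM, E12.5 PL and cultured libraries had no part in the choice.

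The assay was ATAC-seq, which uses Tn5 transposase to place sequencing adapters in open chromatin, on LSK cells of C57BL/6 mice. LSK cells are lineage-negative, carry Sca-1 and Kit, and hold the blood stem cells and early progenitors. The groups were E12.5 PL, E12.5 FL and E16.5 FL (E for embryonic day), Perinatal BM, and BM at 1, 3, 4, 6 and 8 weeks, with 3 libraries in each except 3w BM with 2. Separately, E12.5 FL cells spent 2 h in culture, with 3 libraries from a basic medium (SHI) and 3 from one that E16.5 hepatocytes had conditioned (co-SHI). FL and BM are usual short forms of fetal liver and bone marrow, while the labels do not spell out PL. All groups were of strain C57BL/6 with no genetic change named in the labels, which give neither sex nor the number of animals pooled. Because the labels do not tell whether a group's libraries are separate animals, p-values measure the spread between these libraries, which may be technical.

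Blood stem cells expand in the fetal liver, seed the marrow around birth, and keep dividing there for some weeks before most become quiescent. Over the same period they exchange a fetal program, in which Lin28b blocks maturation of let-7 microRNAs and so keeps let-7 targets such as Hmga2 and the Igf2bp genes active, for an adult one. Open chromatin marks promoters and enhancers that transcription factors can reach, and a region that closes is a candidate for a regulatory element that is no longer in use.

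Library totals over the developmental table ran from 2845113 to 10167340 counts, so that 5 CPM stood for 14.2 counts in the smallest library and 50.8 in the largest. Regions nearest to 6 LSK genes (Kit, Ly6a, Cd34, Ptprc, Flt3 and Gata2) were accessible at every age, with a summed level of 665 to 773 CPM in neonatal and 660 to 712 CPM in adult libraries, and none was late-closed. For markers of other cells, with late-closed regions left out of the sums, the 4 B cell genes stood at 115 to 144 CPM in neonatal and 97.0 to 109 CPM in adult libraries. The 3 endothelial genes stood at 235.8 to 259 and 196 to 235.5 CPM, again with no overlap but by a narrow gap. The erythroid, neutrophil, macrophage, T cell, mast cell, megakaryocyte, hepatocyte and stromal sums overlapped between the ages, and no marker sum was at 0 in any of these libraries. The part of such cells in the results was not tested, and in bulk libraries fewer open cells and less signal per cell cannot be told apart. The library 8w BM 3 carries a stage label of E12.5 against its title. Without it the same rule took 1434 regions, 1159 of the 1179 among them, with a median neonatal over adult fold of 1.96.

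Of the late-closed regions, 124 RefSeq start windows (250 bases before to 50 after the start, build GRCm38.p6, which is mm10) of 114 genes overlapped one. The windows of Lin28b, Igf2bp3, Hmga2 and Peg3 are shown because these genes of the fetal program carry a late-closed region over a RefSeq start. That of Nox4 is shown because its region was also called higher in conditioned medium. These windows lie at chr10:45470152-45470451 (Lin28b), chr6:49214905-49215204 (Igf2bp3), chr10:120476420-120476719 (Hmga2) and chr7:6730370-6730669 (Peg3) on the minus strand and chr7:87246399-87246698 (Nox4) on the plus strand. Each lies wholly inside a late-closed region except that of Igf2bp3, of which 133 bases do. Capitals mark matches on either strand to any of 16 transcription factor motifs searched, which are spelled out below with their frequency in other start windows.
Lin28b: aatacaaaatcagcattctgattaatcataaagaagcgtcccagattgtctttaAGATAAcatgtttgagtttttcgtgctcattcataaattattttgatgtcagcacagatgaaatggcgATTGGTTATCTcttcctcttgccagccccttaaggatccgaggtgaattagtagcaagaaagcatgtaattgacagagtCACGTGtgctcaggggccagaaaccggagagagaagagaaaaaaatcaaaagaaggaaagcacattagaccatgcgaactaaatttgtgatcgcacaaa
Igf2bp3: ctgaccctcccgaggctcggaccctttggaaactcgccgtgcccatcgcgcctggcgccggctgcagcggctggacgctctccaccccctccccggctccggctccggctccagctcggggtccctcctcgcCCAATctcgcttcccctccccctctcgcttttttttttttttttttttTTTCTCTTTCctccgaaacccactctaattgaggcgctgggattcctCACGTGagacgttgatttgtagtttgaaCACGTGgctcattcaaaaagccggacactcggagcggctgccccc
Hmga2: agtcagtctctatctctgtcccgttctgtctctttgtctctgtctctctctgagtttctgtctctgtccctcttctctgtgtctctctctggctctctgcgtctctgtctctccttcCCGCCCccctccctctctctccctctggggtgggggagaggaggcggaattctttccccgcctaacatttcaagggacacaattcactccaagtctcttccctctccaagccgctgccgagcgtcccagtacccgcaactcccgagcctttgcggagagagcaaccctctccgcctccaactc
Peg3: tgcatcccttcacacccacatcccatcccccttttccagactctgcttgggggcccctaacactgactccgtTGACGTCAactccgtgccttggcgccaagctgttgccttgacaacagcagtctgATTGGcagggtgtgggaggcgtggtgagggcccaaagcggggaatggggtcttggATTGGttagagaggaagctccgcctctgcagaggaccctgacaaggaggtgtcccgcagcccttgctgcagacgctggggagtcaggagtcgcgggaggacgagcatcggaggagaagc
Nox4: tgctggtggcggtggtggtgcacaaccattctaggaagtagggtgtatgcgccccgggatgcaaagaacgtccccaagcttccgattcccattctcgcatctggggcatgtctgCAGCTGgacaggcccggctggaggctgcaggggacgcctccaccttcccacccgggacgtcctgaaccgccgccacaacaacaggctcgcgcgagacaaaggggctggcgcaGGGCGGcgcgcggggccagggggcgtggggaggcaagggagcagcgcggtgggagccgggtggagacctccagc
Both Lin28b and Igf2bp3 windows held the E-box CACGTG and the NF-Y box CCAAT, and that of Lin28b also the GATA motif AGATAA. The CCAAT of Igf2bp3 lay outside the part of its window that was late-closed. Igf2bp3 held in addition a match to the motif of interferon regulatory factors. Peg3 held the CRE motif TGACGTCA and CCAAT, Hmga2 held only the SP and KLF motif GGGCGG, and Nox4 held GGGCGG and the E-box CAGCTG.

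Late-closed regions were moderately open at birth. Their neonatal mean had a median of 10.5 CPM (interquartile range 7.22 to 15.9) and their adult mean one of 4.90 CPM (3.20 to 8.32). In the adult libraries the median over all autosomal regions was 4.11 to 4.66 CPM, so late-closed regions were not shut there. The neonatal over adult fold had a median of 1.99 (interquartile range 1.72 to 2.46) and reached 9.96. It lay between 1.5 and 2 in 602 regions, between 2 and 3 in 419 and at 3 or more in 158, of which 35 reached 5.

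By stage the regions formed a plateau and a descent. The median level over the 1179 regions was 9.07 to 10.2 CPM in the E12.5 FL libraries, 8.89 to 9.58 in E16.5 FL, 10.7 to 11.1 in Perinatal BM and 9.34 to 10.9 in 1w BM. It was 6.61 and 6.93 CPM in 3w BM, 5.96 to 6.20 in 4w BM, 4.60 to 5.21 in 6w BM and 5.11 to 5.21 in 8w BM. Every 3w and 4w library thus lay below all neonatal and above all adult ones, and the 3w libraries above those at 4w. As a share of all counts, the regions took 1.61% ± 0.07 in Perinatal BM, 1.495% ± 0.10 in 1w BM, 1.03% ± 0.07 in 3w BM (n = 2), 0.916% ± 0.021 in 4w BM, 0.770% ± 0.025 in 6w BM and 0.797% ± 0.021 in 8w BM (SD, n = 3 unless given). The share of all counts at gene ends, a rough mark of library quality, was 41.8 to 46.0% in neonatal and 43.1 to 45.9% in adult libraries.

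**Figure D1:**
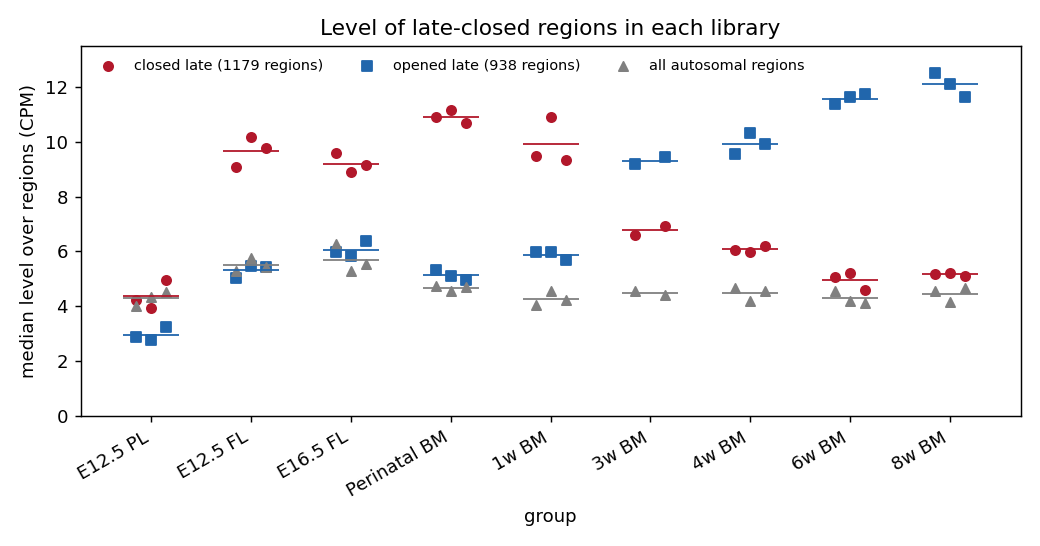
Median level in CPM (vertical axis) of late-closed regions, of regions opened late and of all autosomal regions in each of 26 libraries (points, by group on the horizontal axis), with group means as lines. Late-closed regions stand at 8.89 to 11.1 CPM in liver and neonatal marrow and at 4.60 to 5.21 CPM in adult marrow, with 3w and 4w BM between.

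At 3w and 4w the median levels lay between the neonatal and adult ones. The share of each region's neonatal minus adult difference that was left (0% at the adult mean, 100% at the neonatal mean) had a median of 27.98% at 3w (interquartile range 9.70 to 49.8%) and 15.7% at 4w (1.54 to 33.6%). Since the same neonatal and adult values chose the regions, this share is a description and can be too low or too high. In regions chosen from some stages and scaled by others, given below, 50.3 and 22.3% of the summed difference was left at 3w. At 4w it was 14.8 and 9.46%. By library the medians were 24.8 and 31.1% at 3w and 13.0, 16.9 and 13.8% at 4w. More than 50% was left in 292 regions (24.8%) at 3w and in 136 (11.54%) at 4w. The level had passed below the adult mean in 164 (13.9%) and 264 (22.4%). Both 3w libraries lay under the lowest neonatal library in 663 regions (56.2%, against 5.19% of autosomal regions), and all 4w libraries did in 734 (62.3%, against 3.4%). Conversely, both 3w libraries still exceeded the highest adult library in 361 regions (30.6%, against 5.63% of autosomal regions), and all 4w libraries in 114 (9.67%, against 2.24%). The rule used the lowest neonatal and highest adult library, so nothing is read from these shares. Without 8w BM 3, in the 1434 regions, the medians left were 29.7 and 18.8%.

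**Figure D2:**
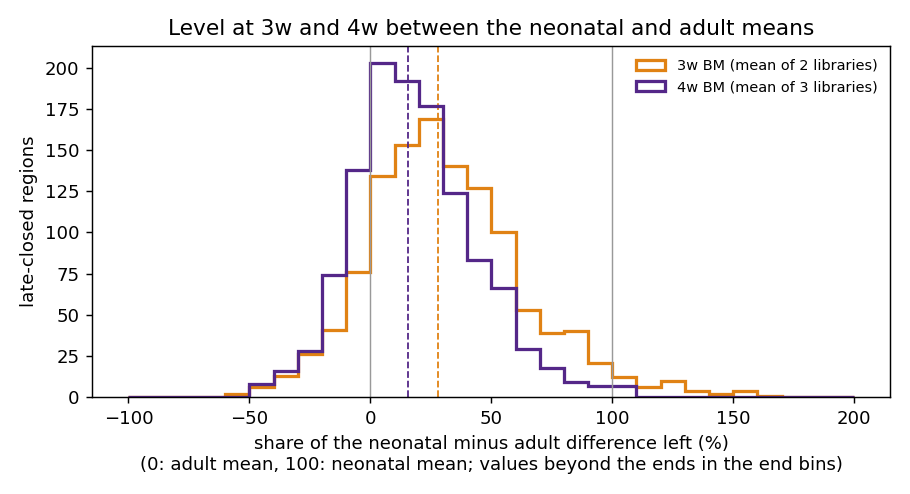
Number of late-closed regions (vertical axis) by the percent of the neonatal minus adult difference left at 3w and 4w BM (horizontal axis, bins of 10 points), with dashed lines at the medians of 27.98 and 15.7%. The 4w distribution lies nearer to 0, and both spread beyond the adult mean on one side.

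Between 3w and 4w most of the regions fell a little further. The 3w mean exceeded the 4w mean in 766 of the 1179 regions (65.0%), against 47.5% of all autosomal regions. Both 3w libraries exceeded all 4w libraries in 247 (21.0%, against 11.3% of autosomal regions), and the reverse held in 66 (5.60%, against 11.4%). In edgeR's quasi-likelihood test of 4w against 3w BM, with Benjamini-Hochberg adjustment over the 99005 regions tested, the late-closed regions had a median log2 fold change of -0.15, against 0.01 for all. None passed an adjusted p of 0.05 in edgeR or in DESeq2. Over all regions 0.00101% were called higher and 0.00707% lower at 4w, so the lack of calls does not show that levels held. At an unadjusted p under 0.05, 90 late-closed regions were lower and 7 higher, in all 8.23% of them against 4.14% of all regions. Late-closed regions also had higher levels than most, and the part of level in these shares was not tested.

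The smallest p belonged to a region in the body of Serpinb1c (chr13:32934699-32935462), a gene of the serine protease inhibitor family. It stood at 29.2 and 47.5 CPM in the 3w libraries and at 11.2, 21.4 and 15.9 CPM in those at 4w. The 3w and 4w libraries did not overlap, and the 4w mean lay under the adult mean of 20.9 CPM. The log2 fold change was -1.21 (SE 0.25, edgeR adjusted p = 0.0604). It was called with only the 2 groups in the fit (adjusted p = 0.00467) and with replicate number as a block (adjusted p = 0.0219).

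To ask whether late closing holds in libraries that did not choose the regions, the rule was applied to 1 neonatal and 1 adult stage and the other stages were compared. From Perinatal BM and 6w BM it took 5678 regions, 1089 of which (19.2% of the set, 92.4% of the late-closed regions) were late-closed ones. Over the whole set of 5678, 1w BM exceeded 8w BM in 4571 regions (80.5%, against 47.7% of all), with a median log2 fold change of 0.40. In edgeR 369 (6.499%) were called higher in 1w BM and 2 lower, against 0.625% and 0.641% of all regions. Without single libraries the calls were 199 (without 1w BM 2), 171 (8w BM 1), 209 (8w BM 2) and 201 (8w BM 3).

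From 1w BM and 8w BM the rule took 2890 regions, 938 of which (32.5% of the set, 79.6% of the late-closed regions) were late-closed ones. Perinatal BM exceeded 6w BM in 85.9% of the 2890 regions, with a median log2 fold change of 0.48. Here 441 (15.3%) were called higher in Perinatal BM and 0 lower in edgeR, against 2.09% and 2.14% of all regions. At an unadjusted p under 0.05, 1098 were higher and 11 lower (38.4%, against 18.3% of all regions), and DESeq2 called 461 in either direction. There were 252 without Perinatal BM 2, 262 without 6w BM 2 and 221 without 6w BM 3. In the libraries held out, the summed level had 50.3% (3w) and 14.8% (4w) of its difference left in the first set and 22.3% and 9.46% in the second. The share left at 3w thus depended on which stages chose the regions and which were compared. Both sets had to reach 5 CPM, unlike all regions, and the part of level in their shares of calls was not tested.

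Genes of the fetal program held more late-closed regions than any other list. They were found at 6 of 18 genes, Igf2bp3, Peg3, Hmga2, Lin28b, Dlk1 and Igf2bp2, and made up 14 of the 140 regions near genes of that list (10.0%, against 1.15% of all regions within 50 kb of a gene). The gene lists were drawn up with earlier results of these data known. The other 12 genes (such as Arid3a, Igf2bp1 and Plag1) had no late-closed region, and Arid3a had 2 that opened late. Summed over the 14 regions, the level was 288 to 303 CPM in Perinatal BM and 232 to 263 CPM in 1w BM. At 3w the 2 libraries both stood at 144 CPM (143.5 and 144.0), at 4w the 3 ranged from 99.7 to 133 CPM, and at 6w and 8w from 74.5 to 98.2 CPM. No library of 4w reached down into the adult range, and none of 3w into the neonatal one.

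Igf2bp3, an mRNA-binding protein of fetal cells, held 4 late-closed regions of its 13, centred from 4324 bases inside to 3060 bases before its start. The strongest lay upstream at chr6:49217671-49218357. Its Perinatal BM libraries stood at 55.8, 59.2 and 57.4 CPM, those of 1w BM at 53.9, 36.9 and 49.5, those of 3w BM at 25.4 and 21.6 and those of 4w BM at 15.9, 12.7 and 17.98. The 6w BM libraries stood at 11.1, 9.62 and 6.29 CPM and those of 8w BM at 11.52, 8.59 and 8.66. From Perinatal to 6w BM each age lay below the one before without overlap, and 33.2% of the difference was left at 3w and 14.5% at 4w. The region over the end of the gene span at its start side (chr6:49215210-49215776) had the largest fold among those of at least median level. There the neonatal mean was 26.04 ± 3.24 CPM and the adult mean 2.85 ± 1.58 CPM (SD, n = 6 each, a 9.12-fold difference). With 13.6 and 12.2 CPM at 3w and 11.9, 6.61 and 11.8 CPM at 4w, every library of these ages lay between the neonatal and the adult ones. Summed over the 4 regions the neonatal mean was 93.8 CPM and the adult mean 16.3 CPM.

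Peg3, a paternally expressed imprinted gene for a zinc finger protein, was at the adult level earlier. Its region in the gene body (chr7:6727243-6728975) stood at 99.5, 78.9 and 63.1 CPM in Perinatal BM and 41.8, 36.5 and 39.8 CPM in 1w BM. By 3w it was at 7.75 and 9.24 CPM and by 4w at 9.33, 10.3 and 7.03 CPM, inside the adult range of 6.29 to 12.8 CPM. No part of the difference was left at 3w (-0.85%) or 4w (-0.09%). The liver libraries ran from 67.9 to 152 CPM, all above those of 1w BM. Its start region (chr7:6729974-6730773), which also covers the start of the divergent gene Usp29, kept 49.4% at 3w and 29.8% at 4w of a smaller difference (9.55 against 3.58 CPM).

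Hmga2, an architectural chromatin protein and let-7 target, behaved in the other way at its start. The region there (chr10:120475499-120477577) is 2079 bp wide and stood at 39.0, 41.5 and 49.6 CPM in Perinatal BM and 48.6, 45.7 and 49.5 CPM in 1w BM. At 3w it was at 50.8 and 49.6 CPM, as high as the highest neonatal library, and at 4w at 48.0, 30.8 and 39.9 CPM. The adult libraries ran from 22.2 to 36.7 CPM, and the 4w libraries spanned from the adult into the neonatal range. The share left was 125% at 3w and 66.4% at 4w. A weaker region inside the gene (5.28 against 1.87 CPM) was at or under the adult mean at both ages, at 1.43 and 1.48 CPM.

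Lin28b, the RNA-binding protein that blocks let-7 maturation, had 2 late-closed regions about a RefSeq start inside its gene span. At that start (chr10:45470025-45470525) the neonatal libraries ran from 6.20 to 10.9 CPM (median 8.52), and the adult ones from 0.759 to 3.41 CPM (median 1.79). Its 3w libraries stood at 3.65 and 2.52 CPM and those of 4w at 2.80, 1.45 and 3.93 CPM, in the adult range or just above it. The neighbouring region (chr10:45469196-45469949) kept 70.7% at 3w, with 8.21 and 11.3 CPM, and 17.0% at 4w, with 8.16, 4.83 and 4.75 CPM. One 4w library lay between the ages and the others in the adult range.

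Dlk1, an imprinted transmembrane ligand of the Notch family, had 2 late-closed regions outside the gene with neonatal means of 9.09 and 7.39 CPM and adult means of 2.00 and 4.30 CPM. Both were at the adult mean by 3w (1.97 and 4.25 CPM). Igf2bp2, an mRNA-binding protein related to Igf2bp3, had 2 in its body at 8.91 and 11.8 CPM in neonatal and 5.17 and 7.30 CPM in adult marrow. At 3w they stood at 4.93 and 8.56 CPM.

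**Figure D3:**
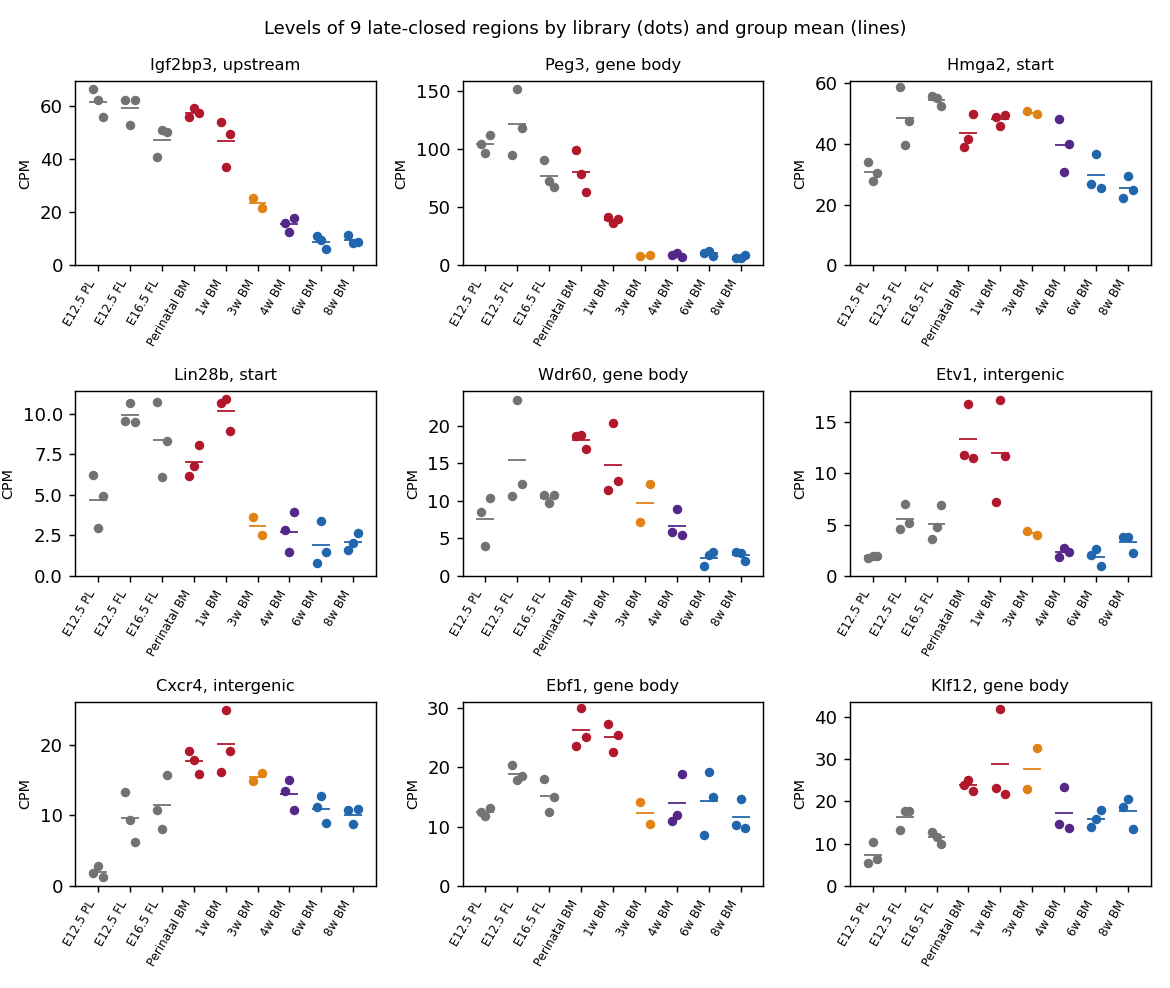
Level in CPM (vertical axes, from 0) of 9 late-closed regions in each library (points) by group, with group means as lines, for neonatal (red), 3w (orange), 4w (purple) and adult (blue) marrow and the other groups (grey). Peg3 is at the adult level by 3w, Igf2bp3 descends through 3w and 4w, and Hmga2 stays at 50.8 and 49.6 CPM at 3w.

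Late-closed regions lay at 8 of 24 homing and adhesion genes (33.3%, against 5.23% of all genes with a region), Selplg, Rac1, Cxcr4, S1pr1, Itga5, Cxcl12, Itga9 and Cd47, and were 9 of the 277 regions of the 24 genes (3.25%), a smaller share than in the lymphoid and hepatocyte lists below. Cd47 also had 1 region that opened late. Cxcr4, the receptor for the marrow chemokine Cxcl12, had a late-closed region 30 kb upstream (chr1:128622568-128623502). It stood at 19.2, 17.9 and 15.9 CPM in Perinatal BM, 16.2, 24.96 and 19.1 in 1w BM, 14.8 and 15.97 in 3w BM and 13.52, 14.98 and 10.7 in 4w BM. The adult libraries ran from 8.74 to 12.8 CPM, so both 3w libraries lay above them and 1 inside the neonatal range. Cxcl12 itself had one at its start (9.90 against 6.29 CPM), with 7.21 CPM at 3w and 6.36 CPM at 4w.

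Rac1, a small GTPase of cell migration, had a region in its body at 14.9 and 20.6 CPM in 3w BM, against a neonatal mean of 19.8 and an adult mean of 9.10 CPM. Its 4w libraries stood at 9.79, 15.6 and 9.51 CPM, and the 3w and 4w libraries overlapped. S1pr1, the sphingosine 1-phosphate receptor, kept 78.2% at 3w and 36.2% at 4w. Selplg, the P-selectin ligand, kept none at 3w (15.2 CPM against an adult mean of 15.2) and 24.5% at 4w. The integrin genes Itga5 and Itga9 and the antiphagocytic signal Cd47 kept 15.3 to 46.4% at 3w and 13.2 to 30.1% at 4w.

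Of the lymphoid and B cell list, 5 of 20 genes with a region (Ebf1, Ccr9, Notch1, Foxo1 and Bach2) held 8 late-closed regions of 178 (4.49%). Bach2, a transcriptional repressor of B cells, had 1 of these and 2 regions that opened late. Ebf1, a transcription factor that specifies B cells, had 3. The strongest, in the gene body (chr11:44892764-44893954), stood at 23.6, 29.97 and 25.04 CPM in Perinatal BM and 27.2, 22.5 and 25.4 CPM in 1w BM. It was at 14.1 and 10.5 CPM in 3w BM and 11.0, 11.9 and 18.8 CPM in 4w BM, all within the adult range of 8.60 to 19.2 CPM. Ccr9, a chemokine receptor of thymus-seeding progenitors, had 2 regions upstream. The stronger (chr9:123754250-123754791) stood at 14.6 and 22.3 CPM at 3w and 12.1, 11.9 and 13.4 CPM at 4w, against neonatal libraries of 19.3 to 29.1 and adult ones of 10.6 to 17.9 CPM. The 3w libraries fell on both sides of the gap, and those of 4w lay in the adult range. Foxo1, a forkhead factor of quiescence and B cell development, had a region (chr3:52396246-52396802) at 4.11 and 11.3 CPM in the 3w libraries, 1 of them inside the neonatal range of 8.95 to 15.7 CPM, and Notch1 one at 12.7 and 10.9 CPM (adult mean 11.2). B cell marker regions outside the late-closed set also stood higher in neonatal than adult libraries, as given above, and their part here was not tested.

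Of the list for stem cell identity, 6 of 27 genes (22.2%, against 5.23% of all genes), among them Hoxb4, Runx1 and Erg, held 7 of 385 regions (1.82%, against 1.15% of all regions). As many regions of the list, 7 at 5 other genes (Slamf1, Meis1, Mecom, Prdm16 and Etv6), opened late. Hoxb4, a homeobox gene of self-renewal, kept 92.9% at 3w (19.96 and 16.8 CPM) and 58.8% at 4w. Runx1, a transcription factor of blood stem cell emergence, kept 135% and 45.6%. Erg, an ETS factor of stem cells, was at the adult mean at 3w (8.21 and 9.88 CPM, left -1.38%).

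Hepatocyte genes held 3 of 44 regions (6.82%), 2 in the body of Hnf4a and 1 at a distance of 45 kb from Alb. The Alb region stood at 11.97 ± 1.83 CPM in neonatal and 3.39 ± 1.49 CPM in adult marrow (SD, n = 6 each), with 4.56 and 5.25 CPM at 3w. Both Hnf4a regions were higher in neonatal marrow (24.3 and 15.2 CPM) than in liver (11.2 and 7.55 CPM). No late-closed region lay near the 23 measured genes of the cell cycle and replication list, the 17 of the T and NK cell list or the 20 of cholesterol and fatty acid synthesis. The remaining lists held 1 to 4 each, at 0.529 to 2.74% of their regions.

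**Figure D4:**
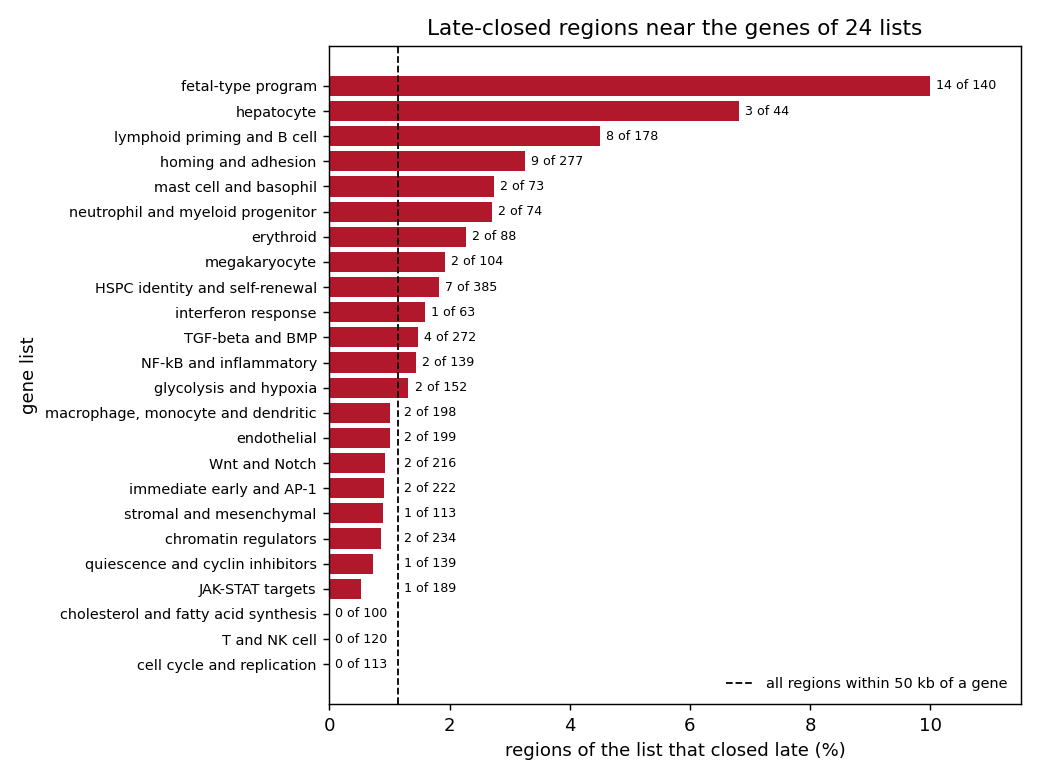
Percent of the regions near the genes of each of 24 lists (vertical axis) that were late-closed (bars from 0, horizontal axis), with numbers of regions beside the bars and a dashed line at the 1.15% of all regions within 50 kb of a gene. The fetal-type list stands at 10.0%, and 3 lists stand at 0.

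Beyond these lists, the largest differences lay at genes of varied roles. Wdr60, a subunit of the dynein of cilia, had a region in its body (chr12:116254576-116255123) with neonatal libraries of 11.4 to 20.4 CPM (median 17.8) and adult ones of 1.26 to 3.18 CPM (median 2.94). Its 3w libraries stood at 7.18 and 12.2 CPM and its 4w libraries at 5.83, 8.86 and 5.37 CPM. All 5 lay above the adult range, and 1 of the 3w libraries reached the neonatal range. Etv1, an ETS transcription factor, had a region 34 kb away (chr12:38904436-38905024) that was most open in neonatal marrow. Its neonatal mean was 12.7 ± 3.77 CPM, against 5.33 CPM in liver and 2.57 ± 1.10 CPM in adult marrow, with 4.33 and 3.99 CPM at 3w.

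Other regions of large fold and at least median level lay near the olfactory receptor gene Olfr1226 (25.2 against 4.53 CPM), Csmd1, a complement regulator (14.8 against 2.59), and Atp10b, a phospholipid flippase (22.7 against 4.88). Armh4 had one at its start (17.6 against 4.43 CPM), and the chemerin receptor gene Cmklr1 one in its body (10.7 against 2.54). Snx20, a sorting nexin, stood at 12.4 against 3.03 CPM, Trim30d, a tripartite motif protein, at 10.8 against 2.58 and Pakap at 13.47 against 3.91. In these 8 named genes the share left at 3w ran from 16.1% (Armh4) to 54.9% (Pakap) and at 4w from 2.19% (Csmd1) to 33.6% (Cmklr1). Regions with no gene within 50 kb were passed over in this order. Those of larger fold than Wdr60 or close to it lay 67247 bases from Cacna2d3 (7.25-fold) and 60084 bases from Speer2 (30.3 against 4.89 CPM).

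Some genes held several late-closed regions. They lay near 862 of 16487 genes with a region, and 93 genes held at least 2, 12 at least 3 and 4 had 4. Besides Igf2bp3 those with 4 were Zfp704, a zinc finger gene, Fam155a, a subunit of the NALCN sodium channel, and Pdzrn3, a ubiquitin ligase. Summed over its regions, Fam155a had a neonatal mean of 52.7 CPM and an adult mean of 19.03 CPM, with 21.1 and 25.6 CPM at 3w. Pdzrn3 stood at 42.1 against 15.9 CPM and Zfp704 at 58.9 against 32.7 CPM.

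Genes with 3 late-closed regions included Pde10a, a cyclic nucleotide phosphodiesterase, Klf12, a Kruppel-like repressor, and Ryr2, a calcium release channel. In the summed level Pde10a stood at 58.1 against 24.98 CPM and Ryr2 at 34.4 against 9.69 CPM. Klf12 stood at 39.2 against 21.5 CPM, with 32.3 and 44.5 CPM in the 3w libraries. Its region at chr14:99933403-99933984 was at 22.9 and 32.6 CPM at 3w, inside the neonatal range of 21.7 to 41.8 CPM, and at 14.7, 23.4 and 13.6 CPM at 4w.

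At the extremes of timing, regions near Sp2, Polk, Bahcc1, Apobec2 and Evi2 kept the most over 3w and 4w. Polk, a translesion DNA polymerase, had a region at 12.7 and 17.2 CPM at 3w and 6.995, 10.6 and 9.30 CPM at 4w, against neonatal libraries of 7.97 to 16.1 and adult ones of 1.33 to 6.75 CPM. No library of either age lay in the adult range. Sp2, a transcription factor of the Sp family, kept 156% and 101%, and Bahcc1, a chromatin protein, 138% and 80.0%. The least was left near Stab2, a scavenger receptor, the nuclear receptor genes Esrrg and Rorb, Fbxo16 and the endosomal GTPase gene Rab4a. Of these, Esrrg stood at 6.73 and 6.30 CPM at 3w and 7.23, 7.25 and 3.31 CPM at 4w, under its adult mean of 8.61 CPM. Since the 10 were taken as extremes of 1179 values, their 3w and 4w levels are no test.

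By position the late-closed regions differed little from all regions, apart from more with no gene nearby. Of the 1179, 185 (15.7%) lay within 1 kb of either end of a gene span, 526 (44.6%) in a gene body, 260 (22.1%) outside genes but within 50 kb and 208 (17.6%) with no gene within 50 kb. For all autosomal regions these shares were 18.3, 43.6, 25.4 and 12.8%. The 938 regions that opened late (the mirror of the rule, without the liver condition) had 12.4, 49.4, 28.1 and 10.1%. Gene bodies were not split into exons and introns. The regions were wider than most, with a median of 610 bp against 550 bp, and 4.83% against 31.3% had the smallest width in the table. They also had a higher level over all 26 libraries (median 7.73 against 4.66 CPM), which the rule favours. Per chromosome they were 0.969% (chromosome 1) to 1.65% (chromosome 14) of regions.

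Start windows were overlapped by 115 of the 1142 late-closed regions outside chromosome 18 (10.1%), against 11.4% of all autosomal regions and 3.02% of those opened late. The windows at late-closed regions had a median GC content of 63.0%, against 62.0% in all windows at an open region, 54.0% in the 29 at regions opened late and 57.3% in all 19006 windows. Matches to the C/EBP motif TTGCNNAA were in 15.3% of the windows at late-closed regions (19 of 124), 7.65% of windows at any open region and 9.99% of all windows. The AP-1 motif TGANTCA was in 8.87, 4.85 and 7.15% and the GATA motif AGATAA in 9.68, 5.69 and 9.43%. Among E-boxes, CAGCTG was in 20.2, 15.2 and 15.9% and CACGTG in 11.3, 10.1 and 8.13%. Over the same 3 sets, GGGCGG (SP and KLF) was in 61.3, 66.8 and 48.7%, CCAAT (NF-Y) in 39.5, 37.0 and 37.8%, CAACTG (MYB) in 10.5, 9.65 and 11.8% and TGTGGT (RUNX) in 8.87, 12.2 and 14.3%. Rarer were TGACGTCA (CRE; 4.03% at late-closed regions and 2.36% of all), CAGGAAGT (ETS; 3.23 and 3.15%), CTTTGAT (TCF; 3.23 and 3.25%), the IRF motif (2.42 and 3.39%) and GAGGAAGT (PU.1; 0.806 and 3.23%). The CTCF motif and that of HOX with PBX matched none of the 124 windows and 0.011 and 0.053% of all. Motifs were read on both strands and could overlap, as ETS and PU.1 motifs share all but their first letter, and a match is a description of the sequence only. Windows at neighbouring starts, as at Elavl4 or at Peg3 and Usp29, overlap and were counted separately.

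In liver the regions stood at levels near those of neonatal marrow, in libraries that stand apart. The liver libraries had 36.0 to 41.3% of their counts at gene ends and an all-autosomal median of 5.28 to 6.28 CPM, against 41.8 to 46.0% and 4.04 to 4.72 CPM in neonatal libraries. Their part in the comparison with liver was not tested. The liver over neonatal ratio of means had a median of 0.874. Liver exceeded neonatal marrow in 403 regions (34.2%) and reached 1.5 times the adult mean in 790 (67.0%). Among liver and marrow groups, the highest group mean fell in E12.5 FL for 307 regions, E16.5 FL for 120, Perinatal BM for 437, 1w BM for 302 and 3w BM for 13. It fell in 4w, 6w or 8w BM for none, which the rule fixes for 6w and 8w BM. Perinatal BM exceeded 1w BM in 774 regions (65.6%), with a median ratio of 1.08.

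In E12.5 PL most late-closed regions were less open than in neonatal marrow, which the rule favours by asking for a high neonatal level. Their library medians were 3.95 to 4.94 CPM. The level lay over the neonatal mean in 226 (19.2%, against 44.7% of autosomal regions). It lay under the adult mean in 628 (53.3%), for which no share of all regions was taken. Against the mean of 3w and 4w BM, edgeR called 272 late-closed regions (23.1%) higher and 444 (37.7%) lower in E12.5 PL, where 30.1% and 26.5% of all regions were. The median log2 fold change was -0.38, against -0.04 for all regions. With the size factors of DESeq2 in place of TMM, 335 were higher and 337 lower (37.5% and 19.8% of all regions), as the median of all regions moved to 0.25 and that of the late-closed ones to -0.09. The difference of the 2 medians was thus negative in both, while the balance of calls depended on the scaling. Unlike all regions, the late-closed ones were chosen for their level in neonatal marrow. The part of that choice in these differences was not tested.

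Among the late-closed regions, those higher in E12.5 PL were led, by p, by both regions of Peg3. The one in the gene body stood at 104, 97.1 and 113 CPM in E12.5 PL, far above the 7.03 to 10.3 CPM of the 3w and 4w libraries (log2 fold change 3.69, SE 0.17, edgeR adjusted p = 4.84e-25). Pxdn, which encodes the matrix enzyme peroxidasin, stood at 41.1, 28.2 and 33.1 CPM against 1.93 to 3.78 CPM (log2 fold change 3.68, SE 0.28). Rbms1, an RNA-binding protein, and Cecr2, a chromatin remodelling factor, followed with log2 fold changes of 2.37 (SE 0.18) and 1.98 (SE 0.17). The 4 Igf2bp3 regions were also higher, with log2 fold changes of 1.33 to 2.38.

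Lower in E12.5 PL were regions near Prss2, Dym, Cd53, Emsy and Gjb5, with log2 fold changes of -2.63 to -2.05. Cd53, a leukocyte tetraspanin, stood at 5.33, 6.12 and 5.80 CPM in E12.5 PL and at 20.5 to 33.2 CPM in the 3w and 4w libraries, with no overlap. The Cxcr4 region was at 1.78, 2.76 and 1.29 CPM in E12.5 PL (log2 fold change -2.73, SE 0.31, edgeR adjusted p = 7.37e-11) and the stronger Ccr9 region at 0.445, 2.37 and 2.58 CPM (-2.93, SE 0.33). Their liver libraries stood higher, at 6.25 to 15.8 and 7.78 to 17.8 CPM.

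In the cultured E12.5 FL cells, 1073 of the late-closed regions (91.0%, against 74.6% of autosomal regions) matched a region of the cultured table by 50% of the length of each. Their median level was 8.79 to 9.70 CPM in SHI and 8.51 to 9.38 CPM in co-SHI libraries, against 5.13 to 5.49 CPM for all matched autosomal regions. In edgeR, 11 (1.03%) were called higher and 12 (1.12%) lower in co-SHI, where 0.228% and 0.332% of all regions were. At an unadjusted p under 0.05, 254 (23.7%, against 12.47% of all regions) differed, 99 higher and 155 lower. Higher levels make a difference easier to call, and the part of level in these shares was not tested. Calls rested on single libraries: without co-SHI 3 there were 31 higher and 78 lower, and without SHI 1, 2 or 3 or co-SHI 1 or 2 there were 0 to 7 higher and 1 to 6 lower.

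The start region of Nox4, an NADPH oxidase, was higher in conditioned medium, at 30.6, 31.4 and 29.9 CPM in co-SHI against 19.7, 14.2 and 19.8 CPM in SHI, without overlap (log2 fold change 0.75, SE 0.13, edgeR adjusted p = 0.00296). Without SHI 2, 0 late-closed regions were called higher, so the Nox4 call depended on that library. In the developmental libraries the Nox4 region stood at 16.2 ± 3.72 CPM in neonatal and 6.02 ± 1.84 CPM in adult marrow (SD, n = 6 each). Csmd1, Sh3bp2 (an adaptor protein), Cntnap5b and Itgbl1 were higher too, by 0.60 to 0.86 on the log2 scale. Lower were regions at Mrps27, a mitochondrial ribosomal protein, Jdp2, an AP-1 repressor, Map3k14, a kinase of NF-kB signalling, Fyn, a Src family kinase, and Smg6, an RNA decay factor. The Smg6 region stood at 19.3, 19.3 and 19.2 CPM in SHI and 10.8, 9.76 and 14.8 CPM in co-SHI (log2 fold change -0.72, SE 0.16, edgeR adjusted p = 0.0264). The Igf2bp3 regions were not called (adjusted p of 0.542 to 0.966), with 78.1, 86.9 and 72.7 CPM upstream in SHI and 73.5, 88.0 and 86.2 CPM in co-SHI.

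Peaks that the authors called in single libraries gave another description. The liver, Perinatal, 1w, 6w and 8w BM peaks come from libraries that also chose the regions, so their shares are no separate test. Late-closed regions were also wider than most, and the part of width was not tested. The share of late-closed regions overlapped by a peak was 59.6% ± 19.05 in Perinatal BM, 74.3% ± 15.8 in 1w BM, 55.8% ± 8.82 in 3w BM (n = 2), 37.9% ± 16.2 in 4w BM, 31.8% ± 8.22 in 6w BM and 35.9% ± 15.3 in 8w BM (SD, n = 3 unless given). For all autosomal regions the means in the same order were 28.3, 38.8, 42.3, 34.1, 34.2 and 37.5%. With an overlap of at least 1 base, late-closed regions had more peaks than these up to 3w. From 4w on their shares lay within the spread between libraries of those of all regions. In E12.5 FL the share was 34.3% ± 5.73 and in E16.5 FL 15.9% ± 5.63, against 20.3 and 12.9% of all regions, and in E12.5 PL 24.9% ± 1.62 against 27.1%. The cultured libraries had 89.8% ± 1.33 (SHI) and 82.4% ± 9.66 (co-SHI), against 61.6 and 51.1%.

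**Figure D5:**
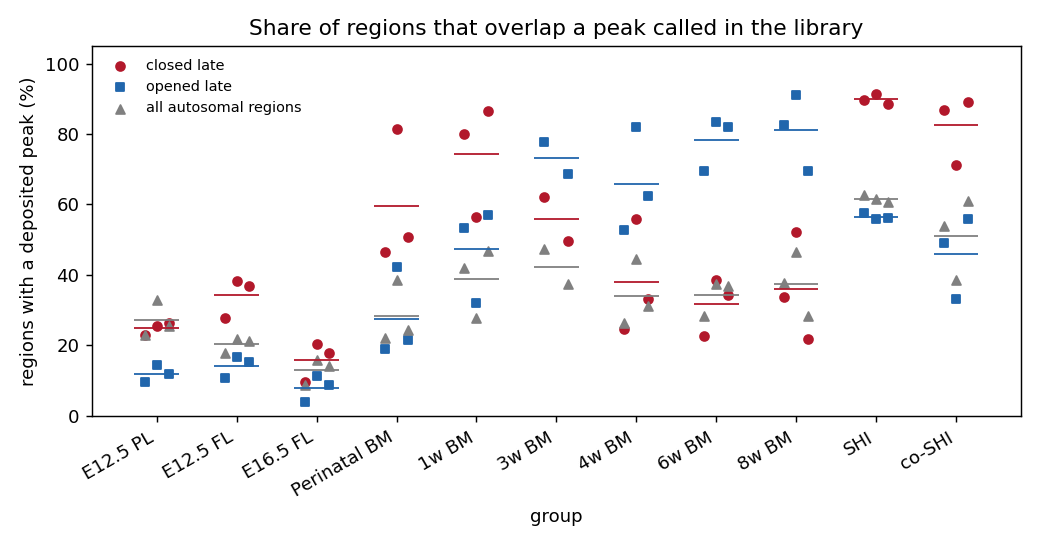
Percent of late-closed, opened-late and all autosomal regions (vertical axis) that overlap a deposited peak by at least 1 base in each library (points, by group), with group means as lines. Late-closed regions stand at 56.5 to 86.4% in 1w BM and at 21.9 to 52.2% in 8w BM, while regions opened late stand at 69.6 to 91.0% in 8w BM.

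Near the fold threshold the set has no natural edge. The region just inside lies near Fli1, an ETS factor of blood stem cells (chr9:32581889-32582557, 28.6 against 19.1 CPM), and the one just outside at the start of Ptprt, a receptor phosphatase (7.80 against 5.20 CPM). There were 53 regions with a fold up to 0.05 above the threshold and 55 that met all other conditions up to 0.05 below it. Without the fold condition 1404 regions would have been taken.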

How the data were processed

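The authors deposited unscaled counts for each region, and the deposited peak lists give a display score, a fold enrichment ratio, and −log10 p and −log10 q values per library as the authors' caller wrote them. Peak values served only to filter. Per the submitters' processing notes, the tools included HOMER, DiffBind, MACS2, Trim Galore and deepTools, with build mm10. Counts also depend on the aligner, the Tn5 offset, duplicate removal and how regions were merged, which are not given in the sources used here.

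Levels are CPM from column sums. Tests used edgeR 4.0.16 in R 4.3.3 (filterByExpr minimum count 10, TMM, quasi-likelihood, two-sided, Benjamini-Hochberg at 0.05), with 26 developmental libraries of 9 groups in one fit and 6 cultured libraries in another. DESeq2 1.42.0 was an alternative. The fits were tested on simulated data. Deposited starts count from 0, and coordinates here count from 1. Genes are the nearest RefSeq span (GRCm38.p6) within 50 kb, predicted genes left out. Overlaps used bedtools 2.31.1, and 3 columns of uncultured cells in the cultured table were not compared.

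The regions, gene lists, markers and tests were chosen with earlier results of these data known. Named regions were the 15 of largest fold with at least the median neonatal level (1 per gene, predicted genes and regions with no gene within 50 kb left out, the latter restriction added after the rule was written), the 8 genes with the most regions, up to 4 genes per list, the 5 of most and of least difference left, the 5 of smallest p per direction and those beside the 1.5 fold. Serpinb1c, Cacna2d3, Speer2 and list genes beyond 4 were named after their values were seen.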

Additional observations from a re-analysis of the deposited data

How the results depend on the processing

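The number of late-closed regions was 577 at a fold of at least 2, 623 with a neonatal mean of at least 10 CPM and 4602 where neonatal and adult libraries could overlap, and 1300 to 1651 without any 1 library. CPM scaled by TMM gave 974. Between 4w and 3w BM, 1 region was called with only the groups compared and 1 with the replicate block, against 0 in the main analysis and 0 without any 1 library. For co-SHI against SHI, total counts without TMM gave 23 lower, and leaving out 1 library gave 0 to 31 higher and 1 to 78 lower. The held-out comparisons gave 171 to 293 calls (1w against 8w BM) and 221 to 344 (Perinatal against 6w BM) without any 1 library. E12.5 PL against 3w and 4w BM gave 248 to 270 higher and 399 to 440 lower.

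Same-numbered libraries deviated together weakly at most (r of -0.038 to 0.088, against -0.088 to 0.044 for other numbers). The numbers were therefore not taken to pair them. For 4w and 3w BM the r of same numbers, 0.059 to 0.088, lay above the -0.088 to 0.028 of other numbers. In the other comparisons the ranges overlapped. With the replicate block, co-SHI against SHI gave 15 higher and 22 lower, and no other count of calls moved by over 1.5 times apart from that of 4w against 3w BM.

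The median share left was 24.8 to 31.1% at 3w and 14.0 to 16.9% at 4w without any 1 library of that age. The summed shares left in held-out libraries were chosen after seeing the data. Requiring a peak over at least 50% of the region lowered the shares with a peak to 24.1% (3w BM), 12.7% (4w BM) and 9.75% (E12.5 PL). For all autosomal regions the means in the same order were 20.2, 15.5 and 13.9%. The late-closed mean thus lay below that of all regions at 4w and in E12.5 PL. Peaks with a −log10 q of at least 5 gave 21.5% in E12.5 PL, against 23.8% of all regions. Gene ends held 13.3% of regions within 0.5 kb and 20.5% within 2 kb. At neonatal levels near 5 CPM a library holds few counts, which limits what single regions show at 3w and 4w.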
